A study of Mus musculus with 21 samples.

Results

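The genes described here are the 37 carried by the mouse mitochondrial chromosome. They were the rows of the deposited count table whose Ensembl identifier lies on chromosome M in the GRCm38 annotation, and they make up 37 of its 55487 rows. Of these, 13 encode proteins, 2 are ribosomal RNAs (rRNAs) and 22 are transfer RNAs (tRNAs). The choice used position alone and no measured value.

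The mitochondrial chromosome is a small circle that is copied and transcribed inside the organelle by nuclear-encoded enzymes. Both strands are read as long transcripts that are cut into separate RNAs, often at the tRNAs that lie between the other genes. All of its proteins are core subunits of the respiratory chain or of the ATP synthase, and they work beside many nuclear-encoded partners. Mitochondria are plentiful in hepatocytes.

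RNA was sequenced from tumours of Hepa1-6, a mouse hepatoma line, grown in C57BL/6 mice in a study of B cells in the answer of liver cancer to checkpoint antibodies. All 21 libraries came from this model, labelled hepatocellular carcinoma, and fall into 4 groups by sample title. WT mice received isotype antibody (5 libraries) or anti-PD1 plus anti-CTLA4, called the combination here (5 libraries), and mice depleted of B cells received isotype (6 libraries) or the combination (5 libraries). How B cells were depleted, the age of the mice and the time of sampling are not given in the labels, nor whether each library is a separate animal, so p-values measure the spread between these libraries. Bulk tumour RNA cannot tell fewer cells of a type from less RNA per cell.

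Library totals ran from 9.52 to 19.17 M counts. Levels are counts per 1 M counts of the library (CPM). The mitochondrial genes together took 1.41 to 2.61% of the counts of a library. Hepatocyte and hepatoma markers were detected in all 4 groups, with 10 of 10 genes above 0 and summed levels of 1223 to 4531 CPM in WT isotype, 162 to 1325 in WT combination, 1709 to 3417 in B-depleted isotype and 927 to 2560 in B-depleted combination. B-cell markers summed to 7.41 to 17.3 CPM in WT isotype, 31.6 to 72.5 in WT combination, 5.51 to 14.1 in B-depleted isotype, where Fcmr was at 0, and 12.9 to 28.3 in B-depleted combination, so B-cell RNA was not absent from the depleted tumours.

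The order of genes on the circle is shown first by 1 junction, since the counts split along it. The stretch at chrM:2646-2780 (GRCm38, plus strand, sequence from the GENCODE M21 transcripts) holds the end of mt-Rnr2, the whole of mt-Tl1 in capitals and the start of mt-Nd1.
mt-Rnr2, mt-Tl1 and mt-Nd1: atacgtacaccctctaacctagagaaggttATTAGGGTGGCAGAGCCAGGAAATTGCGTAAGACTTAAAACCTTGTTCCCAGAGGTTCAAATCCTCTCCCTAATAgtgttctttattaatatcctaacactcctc
Over all libraries mt-Rnr2, the large ribosomal subunit RNA, had 800197 counts, and mt-Nd1, a membrane subunit of complex I, had 523724. The leucine tRNA between them had 9. No base separates the 3 genes in the annotation.

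The same fall at tRNAs held around the circle. The 13 protein-coding genes took 69.09% of all mitochondrial counts, the 2 rRNAs 30.89% and the 22 tRNAs 0.01887%. Of the tRNAs, 9 were at 0 in every library, 10 had counts that were too low to be tested, and mt-Tw (354 counts in all), mt-Tm (282) and mt-Tp (220), the tryptophan, methionine and proline tRNAs, were tested. The library kit selects polyadenylated RNA, and these counts are not read here as the abundance of the tRNAs.

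**Figure D1:**
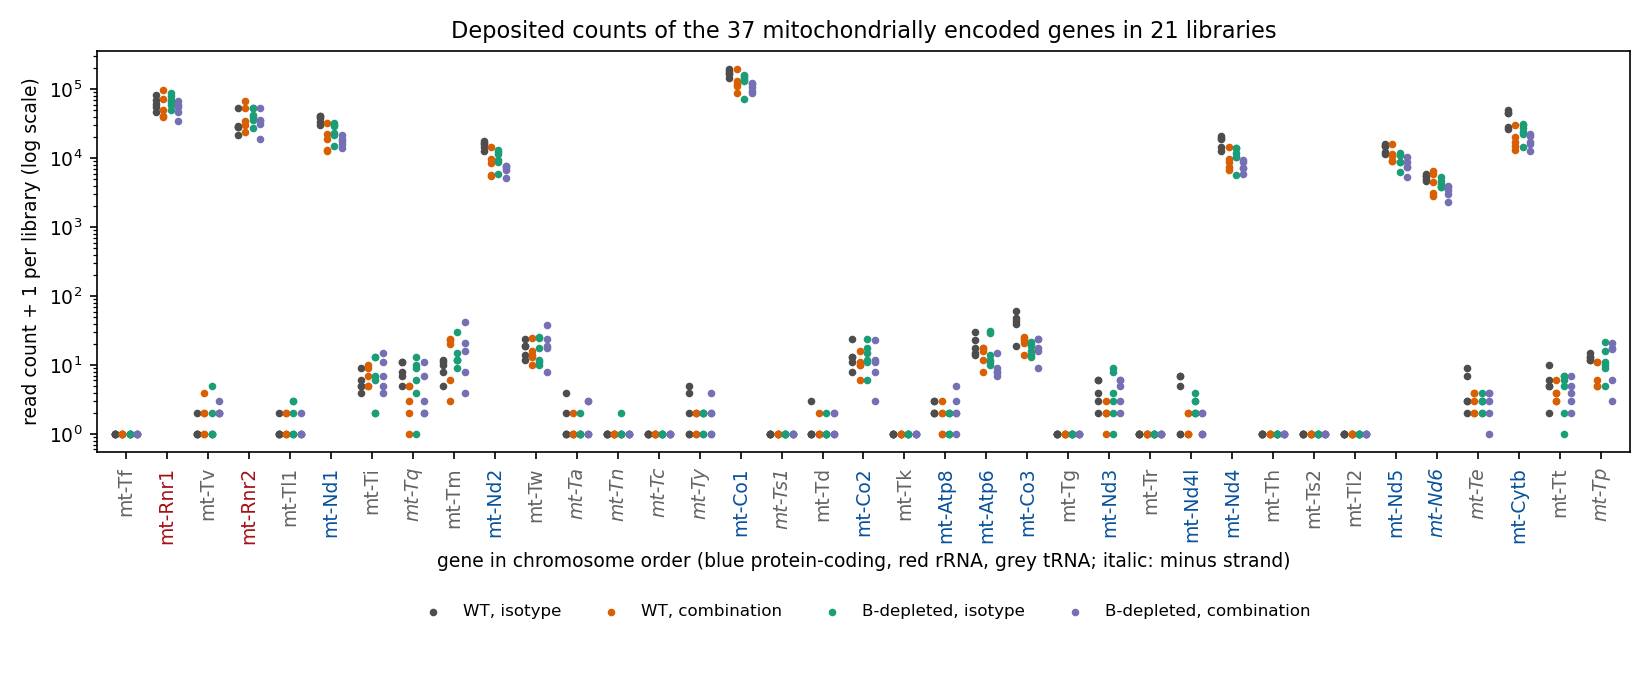
Read count plus 1 of each of the 37 genes in each of the 21 libraries, on a log axis, with genes in their order on the chromosome and colours for the 4 groups. The 7 abundant protein-coding genes and both rRNAs lie at 2319 counts or more in every library, whereas 6 protein-coding genes lie among the tRNAs.

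The protein-coding genes fell into 2 sets far apart. mt-Co1, mt-Cytb, mt-Nd1, mt-Nd4, mt-Nd5, mt-Nd2 and mt-Nd6 had 91818 to 2848809 counts each over the 21 libraries. mt-Co3 (494), mt-Atp6 (305), mt-Co2 (244), mt-Nd3 (59), mt-Nd4l (30) and mt-Atp8 (22) had 1154 counts together, 0.0247% of the protein-coding counts. mt-Co2 and mt-Co3 encode subunits of the same complex IV as mt-Co1, and mt-Atp6 and mt-Atp8 are the only ATP synthase subunits on the circle.

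With 1 exception, the low rows are those whose sequence is nearly all repeated in annotated nuclear genes. All 50-base stretches of mt-Co2 (100%) and nearly all of mt-Co3 (99.86%), mt-Atp6 (99.53%), mt-Nd4l (98.79%) and mt-Nd3 (97.99%) also occur in annotated genes on other chromosomes. The share was 62.23% for mt-Nd4, 51.14% for mt-Co1, 8.19% for mt-Nd2 and 7.606% for mt-Nd5, and it was 0 for mt-Nd1, mt-Nd6 and mt-Cytb. mt-Atp8 is the exception, with a share of 0 among annotated genes and 22 counts. It starts in the 230 bases between mt-Co2 and mt-Atp6, and the nuclear copies of those neighbours are 233 bases apart with no gene annotated between them.

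**Figure D2:**
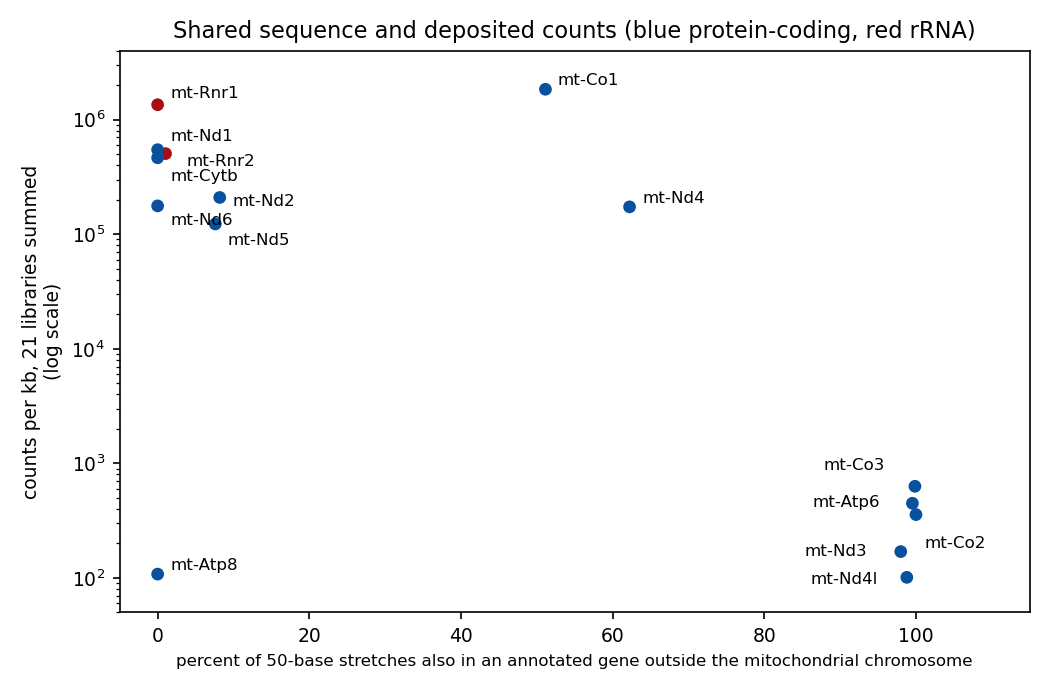
Counts per kb summed over 21 libraries (log axis) against the percent of a gene's 50-base stretches that recur in an annotated gene off the mitochondrial chromosome, for the 13 protein-coding genes (blue) and 2 rRNAs (red). Genes with 97.99% or more shared sequence lie at the bottom right, and mt-Atp8 lies at the bottom left.

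Of the 15 annotated genes that share stretches with the circle, 7 form 1 block at chr1:24611535-24616197 on the minus strand, annotated as unprocessed pseudogenes in the order of the mitochondrial genes. Gm28661 matched mt-Co2 without a mismatch over 681 bases, Gm28437 matched mt-Co3 over 783, Gm10925 matched mt-Atp6 over 678 and Gm10222 matched mt-Nd4l over 294. Gm28438 differed from mt-Nd3 at 1 of 345 bases, T3C, counted from 1 at the 5′ end of mt-Nd3. The first 80 bases of both are given to show how alike the copies are, with the differing base in capitals.
mt-Nd3, chrM:9459-9538, plus strand: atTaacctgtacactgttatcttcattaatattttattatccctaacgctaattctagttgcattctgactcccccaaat
Gm28438, chr1:24613040-24613119, minus strand: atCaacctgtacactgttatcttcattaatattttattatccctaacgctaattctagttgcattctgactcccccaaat
The copies held few counts as well: 2212 in all for Gm28437, 1911 for Gm10925, 1040 for Gm28661, 360 for Gm28438 and 91 for Gm10222. On chromosome 1 Gm29216 (3753) and Gm28439 (671) match parts of mt-Co1 and mt-Nd4, and on chromosome 2 Gm13340 (11196) and Gm13341 (823) match parts of mt-Co1 and mt-Co2. Gm11512 on chromosome 11 shared 5 stretches with mt-Co1 and had 166 counts. How reads with several equally good places were counted is not given in the sources used here, and the low rows are not read here as low expression.

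A second kind of shared sequence lies within the circle. mt-Nd6 is the only protein-coding gene on the minus strand, and its end overlaps that of mt-Nd5 by 14 bases, shown in capitals because reads over them can be told apart only by strand.
mt-Nd5, chrM:13506-13565, plus strand: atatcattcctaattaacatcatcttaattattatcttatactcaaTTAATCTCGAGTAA
mt-Nd6, chrM:13552-13611, minus strand: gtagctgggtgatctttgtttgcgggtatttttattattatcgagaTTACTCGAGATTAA
The kit keeps the strand, but the strand setting used in counting is not given in the sources used here. Reads from the opposite strand can therefore not be separated from those of mt-Nd6.

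Levels between genes were compared per kb of gene. The kit selects polyadenylated RNA, and how evenly it captured these mRNAs and rRNAs was not tested. The order below is one of counts and is not read here as abundance in the tissue. mt-Co1 stood highest, with a median over the 21 libraries of 5674 counts per kb and 1 M counts, followed by mt-Rnr1 (4238), mt-Nd1 (1622), mt-Rnr2 (1434) and mt-Cytb (1315). The other 4 complex I genes came lower, with mt-Nd2 at 582, mt-Nd6 at 530, mt-Nd4 at 467 and mt-Nd5 at 370. Dividing by the number of 50-base stretches not shared, in place of gene length, kept mt-Co1 (11990) and mt-Rnr1 (4467) first, and moved mt-Nd4 to 1283, above mt-Nd2 (665), mt-Nd6 (585) and mt-Nd5 (412). In every library mt-Co1 was the largest of the 13 protein-coding rows, with 55.7 to 67.7% of their counts.

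The combination against isotype in WT tumours asks how the mitochondrial RNAs change with checkpoint antibodies when B cells are present. The transcripts of apocytochrome b (mt-Cytb) and of 3 complex I subunits (mt-Nd1, mt-Nd2 and mt-Nd4) fell, with log2 fold changes from -0.95 to -0.76, and mt-Co3 fell on few counts. Neither rRNA passed the test. Of the 15 tested genes, 5 were lower and none higher at an adjusted p under 0.05 (edgeR quasi-likelihood test, Benjamini-Hochberg over 19061 genes). Among all genes 25.0% were called lower and 25.0% higher, and the count of 5 lower of 15 stands near that background. The median log2 fold change of the 10 tested protein-coding genes was -0.59, beside 0.00 over all genes.

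mt-Cytb, the only complex III subunit encoded on the circle, had 1563, 1763, 2981, 2624 and 2484 CPM in WT isotype and 1729, 1082, 1297, 882 and 869 in WT combination. The first combination library lay inside the isotype range, and the other 4 lay below it. The log2 fold change was -0.95 ± 0.20 (SE, n = 5 and 5, edgeR adjusted p = 0.000939).

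mt-Nd1 had 1827, 2001, 2377, 2185 and 2266 CPM in WT isotype and 1794, 1210, 1417, 781 and 835 in WT combination. These groups did not overlap, although the highest combination library was only just under the lowest isotype library. Groups that did not overlap, lower in the combination, occurred in 14.3% of all genes, and mt-Nd1 was the only one of the 15. Its log2 fold change was -0.81 ± 0.18 (SE, edgeR adjusted p = 0.00134).

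mt-Nd2 and mt-Nd4 encode further membrane subunits of complex I. mt-Nd2 had 795, 846, 1060, 913 and 923 CPM in WT isotype and 808, 540, 604, 338 and 361 in WT combination. mt-Nd4 had 797, 838, 1218, 1098 and 1078 CPM in WT isotype and 821, 568.1, 608, 447 and 439 in WT combination. In both, the first combination library again lay inside the isotype range and the other 4 below it. The log2 fold change was -0.76 ± 0.18 for mt-Nd2 (edgeR adjusted p = 0.00203) and -0.79 ± 0.17 for mt-Nd4 (edgeR adjusted p = 0.00119).

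mt-Co3 was the fifth gene called, at -0.87 ± 0.27 (edgeR adjusted p = 0.0125), on 13 to 61 counts per library in these groups. Its levels were 3.37, 1.20, 2.23, 2.69 and 2.32 CPM in WT isotype and 1.12, 1.40, 1.57, 1.42 and 0.847 in WT combination. With the counts of its nuclear copy added to the row, the value was -0.32 (edgeR adjusted p = 0.197) and 4 genes were called.

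The other protein-coding genes missed the threshold by edgeR. mt-Co1, the catalytic subunit of complex IV, had 9226, 9612, 11511, 9981 and 10221 CPM in WT isotype and 11048, 7666, 8248, 6696 and 5818 in WT combination. Here also the first combination library was high while the other 4 were below every isotype library, and the log2 fold change was -0.34 (95% interval -0.65 to -0.04, edgeR adjusted p = 0.0565). DESeq2 and limma voom called mt-Co1 lower (-0.35, adjusted p = 0.0320, and -0.37, adjusted p = 0.0330). mt-Nd5 had -0.22 (-0.49 to 0.05) and mt-Nd6 -0.14 (-0.51 to 0.23), both complex I subunits. Without the first WT combination library 7 genes were called, with mt-Co1 at -0.50 (edgeR adjusted p = 0.00628) and mt-Nd5 at -0.34 (edgeR adjusted p = 0.0349).

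**Figure D3:**
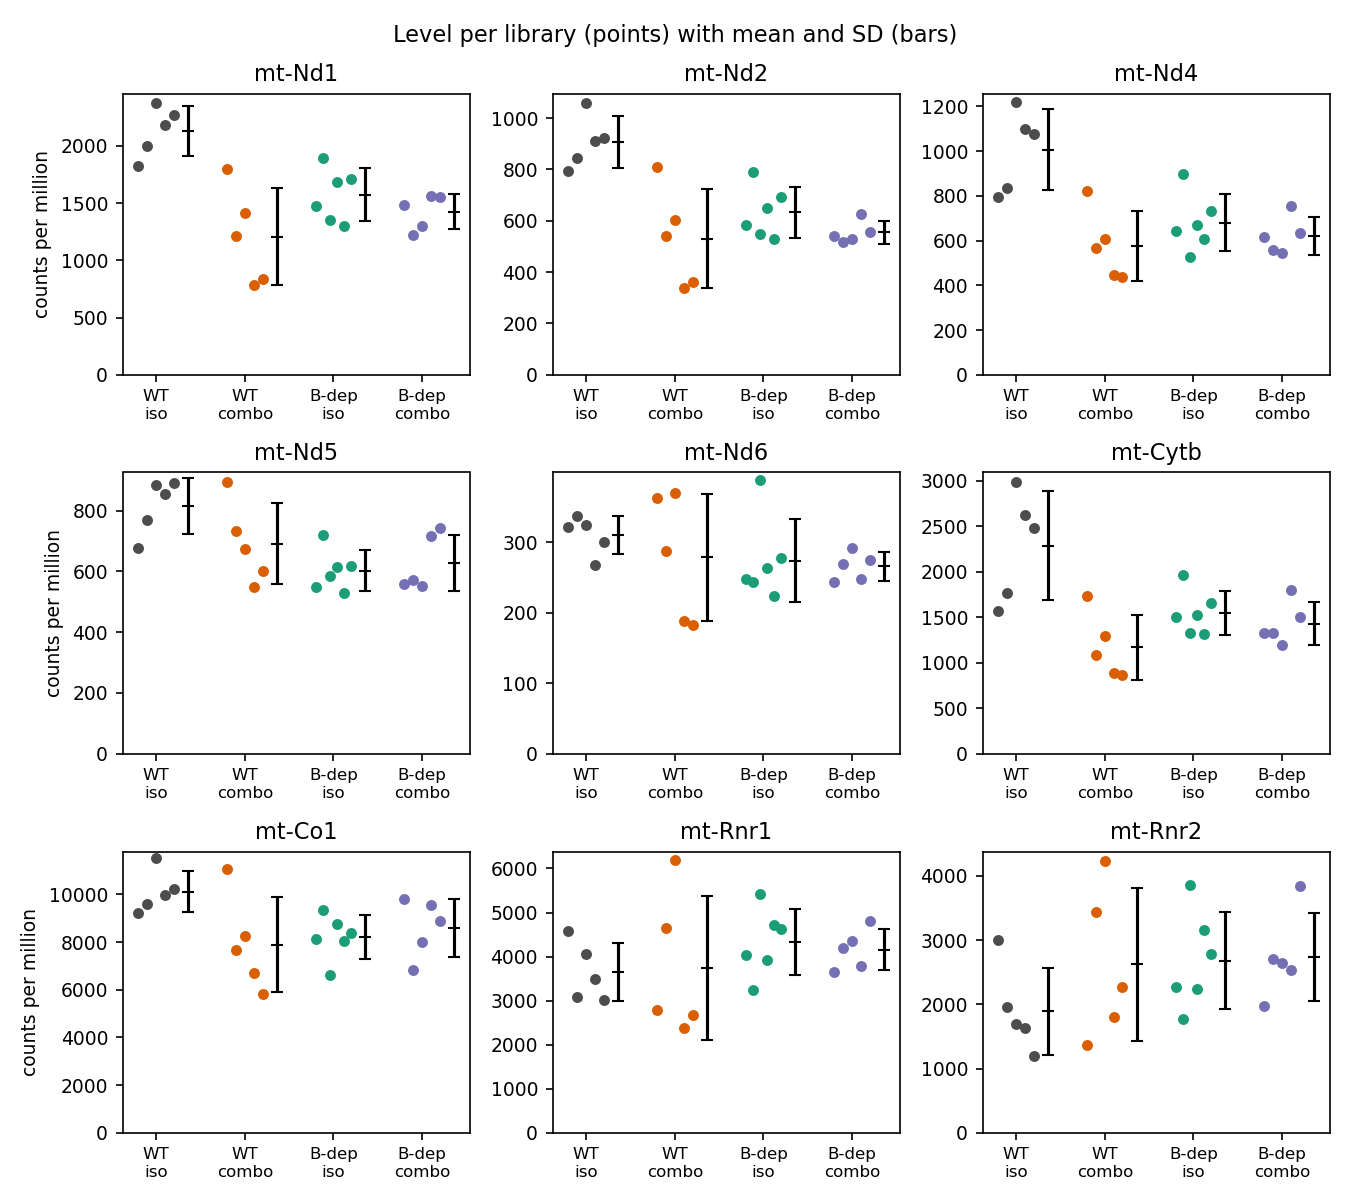
Level in CPM of the 7 abundant protein-coding genes and 2 rRNAs in each library (points, in replicate order within a group), with the group mean and SD beside them (n = 5, 5, 6 and 5). The WT isotype points of mt-Nd1 lie above all WT combination points, and mt-Rnr2 ranges from 1190 to 2998 CPM in WT isotype and from 1363 to 4227 in WT combination.

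The makeup of the protein-coding RNA pool moved with these differences. mt-Nd1 made up 12.1% ± 0.3 (SD, n = 5) of the 13 rows' counts in WT isotype and 9.61% ± 1.11 (n = 5) in WT combination. mt-Cytb went from 12.8% ± 2.1 to 9.43% ± 0.47, and mt-Co1 from 57.7% ± 2.2 to 64.1% ± 2.1. The mt-Co1 share ran from 55.7 to 60.7% in WT isotype and from 62.4 to 67.7% in WT combination, ranges that do not overlap. For mt-Nd5 the share was 4.34 to 4.91% in WT isotype and 5.11 to 6.61% in WT combination, again without overlap, and it was the higher in the combination. These shares sum to 100% within a library and were not tested.

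Cell type markers moved with the antibody response in WT tumours. All 10 hepatocyte and hepatoma markers fell, with the summed levels given above, and all 10 macrophage markers rose (762 to 1563 CPM in WT isotype, 1868 to 3674 in WT combination). All 10 T-cell markers rose (83.1 to 162 and 374 to 604 CPM), as did 8 of 10 fibroblast and matrix genes (2979 to 5490 and 8060 to 28614 CPM). Among all genes 25.0% were called higher and 25.0% lower. Skeletal muscle genes, with 3 of 10 called higher (3.26 to 130 and 39.9 to 316 CPM), stood near that share. All 4 Y-linked genes rose as well (47.6 to 79.2 CPM in WT isotype, 135 to 250 in WT combination). With the summed Y-linked level as a covariate 77 of 19061 genes were called in all, and no mitochondrial gene was: mt-Cytb was at -0.38 (edgeR adjusted p = 0.657) and mt-Nd1 at -0.32 (edgeR adjusted p = 0.684). The part of cell makeup in the fall of these transcripts was not tested.

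The first 2 WT isotype libraries stood apart within their group, with mt-Cytb at 1563 and 1763 CPM beside 2484 to 2981 in the other 3. They also had the most CT010467.1, a nuclear rRNA row described below (35178 and 18798 CPM beside 4835 to 8984). The first WT combination library, inside the isotype range for mt-Cytb, had the least CT010467.1 of its group (7164 CPM beside 20432 to 46177). What links these levels was not tested. Without these 2 isotype libraries, a choice made after seeing the data, mt-Cytb was at -1.20 (edgeR adjusted p = 0.000204). The count of called genes stayed at 5.

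The combination against isotype in B-depleted tumours gave no call. By edgeR's quasi-likelihood test 0 of 15 mitochondrial genes passed, beside 0.341% of all genes. None of the 15 had an unadjusted p under 0.05, beside 14.3% of all genes, and DESeq2 called none of them. mt-Cytb ran from 1315 to 1965 CPM with a median of 1514 in B-depleted isotype, and was 1325, 1330, 1195, 1795 and 1505 in B-depleted combination. Of the 5 combination values 4 lay within the isotype range and 1 just under it, and the log2 fold change was -0.09 (95% interval -0.49 to 0.30). mt-Nd1 ran from 1304 to 1897 CPM with a median of 1581 in isotype and was 1479, 1222, 1303, 1561 and 1553 in the combination, a log2 fold change of -0.12 (-0.47 to 0.23). The intervals of mt-Nd2 (-0.53 to 0.19), mt-Nd4 (-0.45 to 0.23) and mt-Co1 (-0.20 to 0.38) also spanned 0. The smallest adjusted p was 0.371 (edgeR, mt-Tw, 0.75).

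B-depleted against WT under isotype asks whether these RNAs differ with B-cell depletion in tumours given no checkpoint antibody. No gene of any kind was called by edgeR here (0% of 19061). At an unadjusted p under 0.05 the test picked 7 of the 15 mitochondrial genes, all lower in B-depleted tumours, beside 2.95% of all genes (563). They were mt-Co3, mt-Nd5, mt-Nd4, mt-Nd2, mt-Cytb, mt-Nd1 and mt-Co1. None passed the correction, where the smallest adjusted p among the 15 was 0.775 (mt-Co3), and DESeq2 called mt-Co3 only (adjusted p = 0.0417). The 7 genes lie on the plus strand and are cut from shared long transcripts, so they are not separate results. The rRNA row CT010467.1 ran from 4835 to 35178 CPM in WT isotype and from 13963 to 41029 in B-depleted isotype. Its part is not separated from these values here.

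mt-Nd2 was the only one of the 15 whose groups did not overlap under isotype, with 795 CPM as the lowest WT value and 790 as the highest B-depleted value, beside 0.178% of all genes that were lower without overlap. In B-depleted isotype it ran from 528 to 790 CPM with a median of 616, and the log2 fold change was -0.54 (95% interval -0.89 to -0.19). mt-Nd5 ran from 528 to 719 CPM with a median of 600, and in WT isotype was 677, 771, 883, 854 and 893. Only the highest B-depleted library reached into the WT range, and the log2 fold change was -0.45 (-0.71 to -0.20). The values were -0.58 for mt-Nd4, -0.58 for mt-Cytb, -0.46 for mt-Nd1, -0.32 for mt-Co1 and -1.21 for mt-Co3. With its nuclear copy added, mt-Co3 was at -0.17.

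The rRNAs lay on the other side under isotype, with mt-Rnr1 at 0.23 (-0.22 to 0.68) and mt-Rnr2 at 0.48 (-0.12 to 1.08), neither past the test. The summed hepatocyte and hepatoma markers overlapped between these groups, and 0 of 10 were called. The part of cell makeup in these values was not tested.

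**Figure D4:**
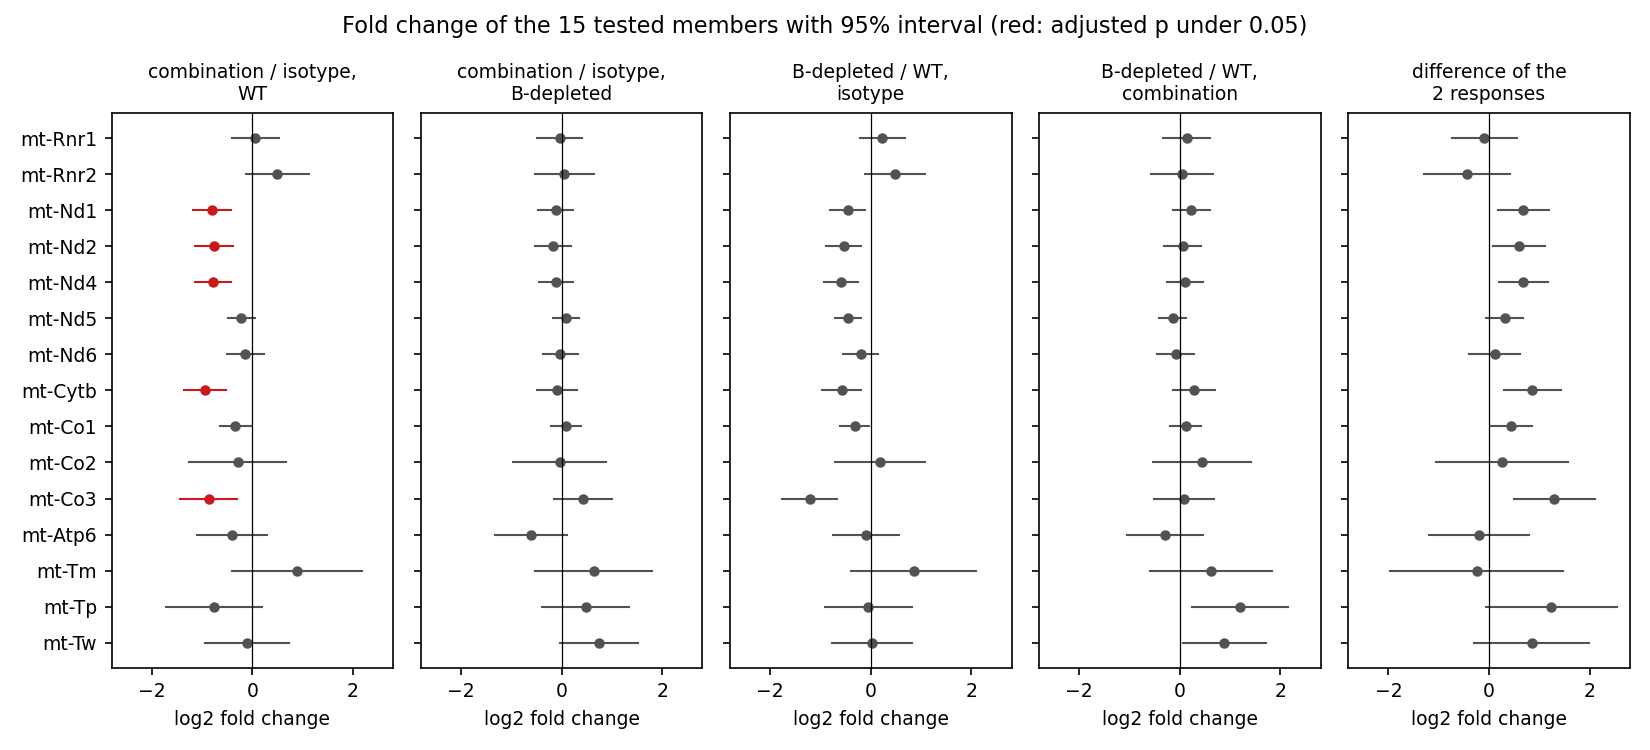
Log2 fold change with 95% interval (bars) of the 15 tested genes in 5 comparisons, with red for an adjusted p under 0.05. Red points occur in the WT response alone, and mt-Nd1, mt-Nd2, mt-Nd4 and mt-Cytb lie left of 0 there and under isotype, with intervals that span 0 in the other depletion and response panels.

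B-depleted against WT under the combination gave 0 of 15 calls by edgeR, beside 29.1% of all genes. mt-Nd1 was at 0.23 (95% interval -0.14 to 0.60), mt-Cytb at 0.28 (-0.13 to 0.69) and mt-Co1 at 0.11 (-0.19 to 0.42). mt-Tp and mt-Tw, 2 of the 3 tRNA rows tested, had an unadjusted p under 0.05, beside 43.5% of all genes. mt-Tp was at 1.20 (0.24 to 2.16, edgeR adjusted p = 0.0557) and mt-Tw at 0.88 (0.06 to 1.71, edgeR adjusted p = 0.0929), on 2 to 37 counts per library. DESeq2 called mt-Tp (adjusted p = 0.0428).

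The interaction, the response in B-depleted minus that in WT tumours, tests whether the fall in WT differed from the response without B cells. It gave 0 of 15 calls by edgeR, beside 0.0262% of all genes. At an unadjusted p under 0.05 it picked 6 of 15, all positive, beside 25.6% of all genes. These genes too are cut from shared long transcripts and are not separate results. mt-Cytb was at 0.86 (95% interval 0.29 to 1.43, edgeR adjusted p = 0.0988), mt-Co3 at 1.30 (0.49 to 2.10, edgeR adjusted p = 0.0913), mt-Nd4 at 0.68 (0.19 to 1.17), mt-Nd1 at 0.68 (0.18 to 1.19), mt-Nd2 at 0.59 (0.08 to 1.11) and mt-Co1 at 0.43 (0.01 to 0.85). DESeq2, which called 1181 of 19061 genes, called mt-Co3 (adjusted p = 0.0360) and mt-Cytb (adjusted p = 0.0404). Without the first 2 WT isotype libraries edgeR called mt-Cytb (1.10, adjusted p = 0.0223), mt-Co3 (1.32, adjusted p = 0.0342) and mt-Nd4 (0.85, adjusted p = 0.0378), in a fit that called 2007 of 19778 genes. That fit was chosen after seeing the data, and the 2 libraries had the lowest mt-Cytb of their group. Leaving them out raises the WT isotype level of mt-Cytb, so these calls are not independent support. The WT response and the depletion under isotype share the WT isotype libraries, which also enter the interaction, so their values are not independent of each other.

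The ranges of the 2 rRNAs overlapped between WT isotype and WT combination. mt-Rnr1, the small ribosomal subunit RNA, had 4586, 3088, 4050, 3493 and 3020 CPM in WT isotype and 2795, 4639, 6182, 2369 and 2671 in WT combination, a log2 fold change of 0.05 (95% interval -0.41 to 0.52). mt-Rnr2 had 2998, 1955, 1692, 1630 and 1190 CPM in WT isotype and 1363, 3444, 4227, 1805 and 2269 in WT combination, a log2 fold change of 0.50 (-0.13 to 1.12, edgeR adjusted p = 0.172). Combination libraries 2 and 3 were the highest of their group for both, and neither was the highest for mt-Cytb. In the B-depleted groups mt-Rnr2 ran from 1765 to 3859 CPM under isotype and was 1972, 2703, 2644, 2526 and 3842 under the combination.

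The mitochondrial rRNAs moved with a nuclear rRNA row. CT010467.1, annotated as rRNA on chromosome 17, ranged from 4835 to 46177 CPM in a kit that selects polyadenylated RNA. Over the 21 libraries its log2 CPM and that of mt-Rnr2 correlated at Pearson's r = 0.94 and Spearman's rho = 0.98, and at r = 0.93 after the group means were removed. These points share library totals and any carry-over of rRNA into the libraries. For mt-Rnr1 r was 0.62 and rho 0.79. The library with the highest and that with the lowest CT010467.1 level were also the highest and lowest for mt-Rnr2 in 4 of 4 groups.

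The protein-coding genes lay the other way or flat against that row. For mt-Nd4 r was -0.72, for mt-Cytb -0.69, for mt-Co1 -0.63 and for mt-Nd6 -0.04, all over the same 21 libraries. After the group means were removed, r was -0.64 for mt-Nd4, -0.64 for mt-Cytb, -0.54 for mt-Co1 and 0.17 for mt-Nd6. CT010467.1 itself was not called in the WT response (0.90 ± 0.48, edgeR adjusted p = 0.128), with 4835 to 35178 CPM in WT isotype and 7164 to 46177 in WT combination. With its log2 CPM as a covariate, 5 of 15 mitochondrial genes and 6746 of 19061 genes in all were called in the WT response, with mt-Cytb at -0.70 (edgeR adjusted p = 0.00795). mt-Rnr2 was then at -0.12 and mt-Rnr1 at -0.30. Lars2, the mitochondrial leucyl-tRNA synthetase, also ranged from 224 to 2629 CPM. Its row was lowest in WT isotype library 5 and highest in WT combination library 3, where CT010467.1 was also lowest (4835 CPM) and highest (46177 CPM). Its value of 1.19 (edgeR adjusted p = 0.0506) is therefore not read here as a rise of the synthetase mRNA. What links the 2 rows was not tested.

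**Figure D5:**
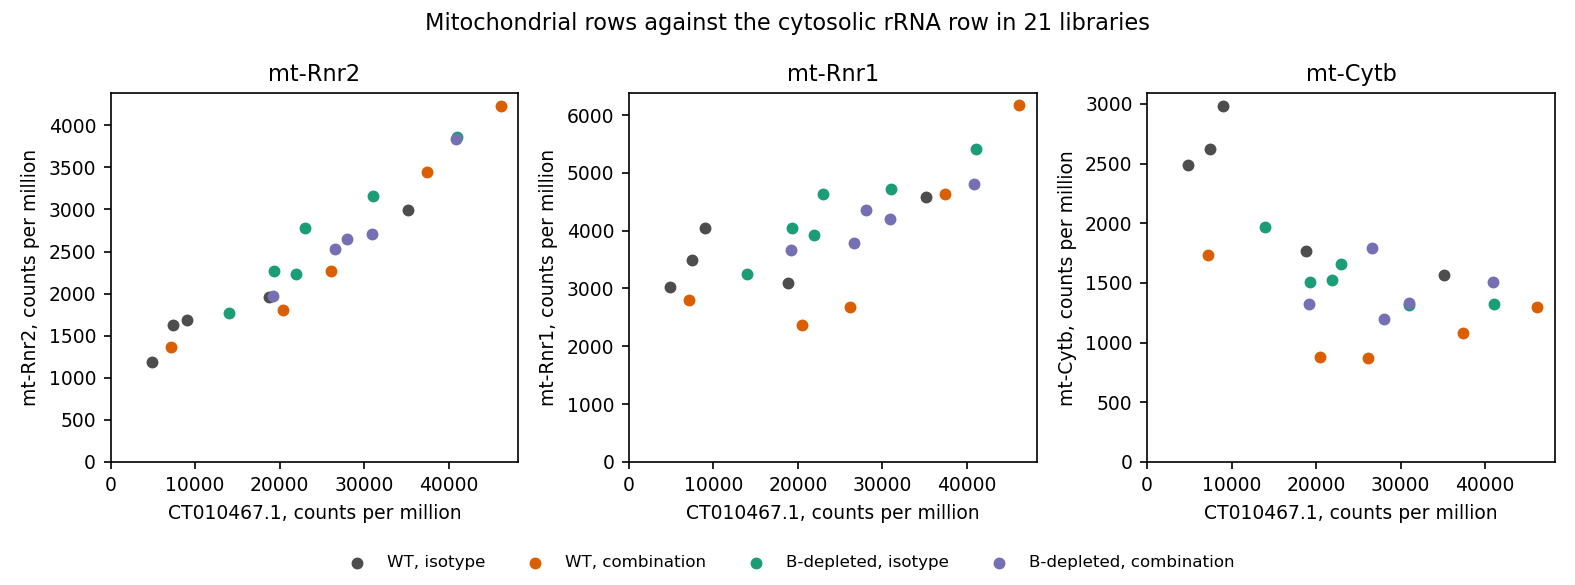
CPM of mt-Rnr2, mt-Rnr1 and mt-Cytb against CPM of the nuclear rRNA row CT010467.1 in the 21 libraries, coloured by group. mt-Rnr2 rises along the axis in all 4 groups (r = 0.94 on log2 CPM), whereas mt-Cytb is highest in 3 WT isotype libraries with little CT010467.1.

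Nuclear genes that act on mitochondrial DNA and RNA gave a mixed picture in the WT response. Among 20 genes of mitochondrial DNA transcription and replication, 7 fell and 2 rose (median log2 fold change -0.11), beside 25.0% of all genes called in each direction. Tfam, which packs the DNA and starts transcription, fell by 0.32 on the log2 scale (edgeR adjusted p = 0.0191), and Twnk, the replicative helicase, fell by 0.83 (edgeR adjusted p = 0.000946). Polrmt, the mitochondrial RNA polymerase, was at -0.25 (edgeR adjusted p = 0.0749). Tk2, a nucleoside kinase of the organelle, rose by 0.55 (edgeR adjusted p = 0.000792).

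Of 20 genes for processing, polyadenylation and decay of mitochondrial RNA, 12 fell and 1 rose (median -0.29), beside the same 25.0% of all genes each way. Lrpprc, which stabilises the mitochondrial mRNAs, fell by 0.35 (edgeR adjusted p = 0.00228), and the RNA-binding proteins Fastkd2 and Tbrg4 fell by 0.67 (adjusted p = 0.000293) and 0.66 (adjusted p = 0.000310). Supv3l1, the helicase of the RNA degradosome, fell by 0.52. The 1 that rose was Rexo2, an oligoribonuclease, at 0.52 (edgeR adjusted p = 0.00173). Mtpap, the poly(A) polymerase, was at -0.20 (edgeR adjusted p = 0.0555).

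Genes taken as measures of mitochondrial mass fell in 9 of 12 cases with none higher (median -0.44), beside 25.0% of all genes called lower. Among them were the prohibitins Phb (-0.66) and Phb2 (-0.82). Of 6 regulators of biogenesis 3 fell and 2 rose: Ppargc1a was at -1.43 (edgeR adjusted p = 0.00150) and Ppargc1b at 0.73 (edgeR adjusted p = 0.00134). Of 17 mitochondrial aminoacyl-tRNA synthetases 3 fell, such as Iars2 (-0.36), and 2 rose, such as Cars2 (0.29), neither count above the 25.0% of all genes called in each direction.

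The nuclear partners of the mitochondrially encoded subunits moved in both directions. In complexes I, III, IV and V together 21 of 71 nuclear subunits fell and 7 rose (median -0.14), beside 25.0% of all genes in either direction. Complex I had 10 lower and 4 higher of 36, with Ndufa12 at -0.56. Complex III had 4 lower of 9, with Uqcr10 at -0.36, and complex IV 2 lower and 1 higher of 11, with Ndufa4 at -0.79 and Cox5a at 0.40. Complex V had 5 lower and 2 higher of 15, with Atp5a1 at -0.40 and Atp5b at -0.49. Complex II has no mitochondrially encoded subunit, and of its 4 genes 2 rose, Sdhb (0.55) and Sdhc (0.21), and none fell. With the Y-linked covariate, whose level did not overlap between the WT groups, Tfam, Uqcr10, Atp5a1 and Atp5b turned to values above 0, none of them called.

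Under the combination, B-depleted tumours had several of these nuclear genes higher than WT tumours, while no mitochondrial gene was called. Of the 12 mass genes 7 were higher and none lower, and of the RNA processing genes 9 were higher and 1 lower. Of the 71 subunits of complexes I, III, IV and V 17 were higher and 1 lower, beside 15.5% of all genes called higher. Genes called lower here were 2582 of all 19061. Other lists were mixed: of 20 transcription and replication genes 5 were higher and 4 lower. Of 4 complex II genes 0 were higher and 1 lower. Of 6 regulators of biogenesis 3 were higher and 0 lower, and of 17 aminoacyl-tRNA synthetases 3 were higher and 1 lower. Phb2 was at 0.64 (edgeR adjusted p = 0.0105), Supv3l1 at 0.56 (edgeR adjusted p = 0.00429) and Ndufa4 at 0.72 (edgeR adjusted p = 0.00582). All 10 hepatocyte and hepatoma markers were higher too, and their part was not tested. In the B-depleted response, under isotype and in the interaction, none of these nuclear genes was called by edgeR.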

How the data were processed

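The deposited table holds raw read counts per Ensembl gene in 21 libraries, made by the authors; its values are whole numbers with unequal column totals. Tools named per the submitters' processing notes are STAR 2.7.2a and cutadapt 2.4, with the genome GRCm38, and per the labels RNA came from frozen tissue and a TruSeq Stranded mRNA kit. Which program counted reads, with which annotation and strand setting, is not given in the sources used here. Symbols, positions and sequences were taken from GENCODE M21; 260 rows had no symbol and were kept.

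The counts were tested with edgeR 4.0.16 in R 4.3.3. filterByExpr kept 19061 genes, 15 of them mitochondrial, and TMM scaling (0.953 to 1.029) was used. The robust quasi-likelihood fit had 4 groups over all 21 libraries (biological coefficient of variation 0.246), and 5 comparisons were tested at a Benjamini-Hochberg adjusted p under 0.05. Alternatives used DESeq2 1.42.0 and limma voom 3.58.1, other scalings, filters, blocks and covariates, and libraries left out. On simulated data of 19061 genes, the WT comparison recovered 63% of 100 genes changed 2-fold and 49% of 100 changed 1.7-fold, with 2 false calls. The B-depleted comparison recovered 59% and 48%, with 5 false calls. These runs changed few genes, as many up as down, while 9529 genes were called in the real WT response. Their rates therefore do not carry over to that response. Shared sequence was counted as 50-base stretches of a gene found in another annotated transcript. The genes named are all mitochondrial genes with tests and, from each nuclear list, called genes of small adjusted p, with Tfam, Polrmt, Lrpprc and Mtpap in any case. Genes and lists were chosen with earlier results of these data known. Among 45 pairs of libraries within groups none were identical.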

Additional observations from a re-analysis of the deposited data

Results flagged for a closer look

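Single libraries far from the rest of their group were looked for in 112 groups of values, over mitochondrial genes and their nuclear copies, and 7 were found. Chance gives about 1 in 20 groups. mt-Nd6 was at 388 CPM in the third B-depleted isotype library, beside 224 to 277 in the other 5. That library was also the highest of its group for mt-Rnr2 (3859 CPM) and for CT010467.1 (41029 CPM). mt-Atp6 was at 1.04 CPM in the third B-depleted combination library, beside 0.4998 to 0.6499, on very few counts.

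Among the nuclear copies, Gm29216, the chromosome 1 copy of part of mt-Co1, was at 54.8 CPM (864 counts) in the second WT combination library, beside 7.14 to 8.84 in the other 4. Its WT response of 1.23 (edgeR adjusted p = 0.0371) includes that library. Gm29216 was also at 20.6 CPM in the fourth B-depleted isotype library, beside 6.05 to 11.01. Gm10925, the mt-Atp6 copy, was at 8.06 CPM in the second WT combination library, beside 3.74 to 4.91. Gm28437, the mt-Co3 copy, was at 10.1 CPM in the third WT isotype library, beside 4.91 to 6.39. Gm13341, a copy of part of mt-Co2, was at 0.916 CPM in the third B-depleted isotype library, beside 2.66 to 3.06. What sets these libraries apart was not tested.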

How the results depend on the processing

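In the WT response 5 mitochondrial genes were called, and leaving out 1 library gave 5 to 7. Nuclear-only scaling, thinning, the unfiltered fit and the fit of the compared groups alone left mt-Cytb, mt-Nd1, mt-Nd2 and mt-Nd4 called. With the Y-linked covariate 0 were called, and Atp5a1 (0.0316), Atp5b (0.0591), Tfam (0.0488) and Uqcr10 (0.133) changed sign. The Y-linked sums did not overlap between the WT groups, so that fit cannot separate the covariate from the antibody response. The cause was not tested. Under isotype DESeq2 called 1 mitochondrial gene. Under the combination DESeq2 called 1 and a fit with the replicate number as a block called 1, while leaving out 1 library gave 0 to 2. In the interaction DESeq2 called 2, leaving out 1 library gave 0 to 1, and leaving out WT isotype libraries 1 and 2 gave 3. That last choice, the rRNA covariate and the added nuclear copies were chosen after seeing the data. So was the fit without B-depleted isotype libraries 3 and 5 and B-depleted combination library 5. These 3 were picked for their B-cell RNA, which was above 0 in every B-depleted library.

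Same-numbered libraries deviated together (correlation over 0.1) in 9 of 30 pairs by title and 7 of 27 by description code. The correlations ran from -0.36 to 0.56. Pairs with different numbers were not compared, so a shared batch or set of animals was not tested. The block moved no other count of mitochondrial calls past 1.5 times. Over all genes the block took the B-depleted response from 65 calls to 33 and the interaction from 5 to 0.

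With all libraries, other counts over all genes that moved by more than 1.5 times were, in the B-depleted response, 388 by DESeq2, 102 by voom, 35 unfiltered, 6 with only the groups compared, 14 with the code block and 31 with the Y-linked covariate. In the interaction DESeq2 called 1181, and the Y-linked and rRNA covariates each left 0. The Y-linked covariate took the WT response from 9529 calls to 77 and the depletion under the combination from 5545 to 4, where the unfiltered fit gave 3343. Under isotype, where no gene was called, DESeq2 called 5, the Y-linked covariate 16, and the unfiltered fit and either block 1 each.

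Leaving out 1 library gave 7691 to 10240 calls over all genes in the WT response, 11 to 176 in the B-depleted response, 0 to 2 under isotype, 2182 to 7606 under the combination and 0 to 1540 in the interaction. The interaction count was 361 without WT combination library 1, 1540 without WT combination library 3 and 1382 without B-depleted combination library 5. Without WT isotype libraries 1 and 2 it was 2007, with 25 calls under isotype and 40 in the B-depleted response. Without B-depleted isotype libraries 3 and 5 and B-depleted combination library 5 the B-depleted response had 397 and the interaction 1.

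Counting protein-coding genes alone, the mean share of a library's counts was 1.757% in WT isotype, 1.235% in WT combination, 1.351% in B-depleted isotype and 1.353% in B-depleted combination. Divided by gene length, the mean mt-Co1 share of the protein-coding rows was 48.9% in WT isotype, 55.6% in WT combination, 51.73% in B-depleted isotype and 54.71% in B-depleted combination, and that of mt-Cytb 14.67% in WT isotype, 11.03% in WT combination, 13.13% in B-depleted isotype and 12.32% in B-depleted combination. Of 4502 values of single genes under alternatives, 4273 kept their side of the threshold, 128 of them with a change of sign and no call under either setting. A further 177 lost their call, 48 gained one and 4 reversed. Depth limits the tRNA rows and the 6 low protein-coding rows.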
